A study of Mus musculus with 5 samples.

Results

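The genes described here are the molecular chaperones and protein-folding factors of the cytosol, the endoplasmic reticulum (ER) and the mitochondria in the mouse line RAW264.7, which the labels call monocyte/macrophage. They were taken by symbol from the deposited gene table: every gene whose symbol starts with Hspa, Hspb, Hspd, Hspe, Hsph, Hsp90, Dnaja, Dnajb, Dnajc or Pdia, or with Cct and a digit, and the 10 genes Tcp1, Calr, Canx, Hyou1, Sdf2l1, Manf, Creld2, Xbp1, Atf6 and Hsf1. Of 99 genes that matched, 94 had a value and 5 (Dnajb8, Dnajc5b, Dnajc5g, Dnajc19-ps and Hspb2) had none, so the group holds 94 of the 16003 genes with a value. The symbols bring in 3 transcription factors of the stress responses (Xbp1, Atf6 and Hsf1) and 3 genes that share the Hspb letters without being small heat shock proteins: Hspbp1, a nucleotide exchange factor of HSP70, Hspbap1, and Hspb11, also known as the intraflagellar transport protein IFT25.

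The CD137 cells carried Renilla luciferase together with mouse Cd137, and the control cells carried Renilla luciferase alone. CD137, a receptor of the TNF receptor family that co-stimulates T cells, is the product of Tnfrsf9. The table used here holds CD137 replicates 2 and 3 and control replicate 2, out of 3 CD137 and 2 control samples in the series; replicate 1 of either group was not analysed here. Messenger RNA was selected with oligo-dT beads, and levels are in FPKM, which counts fragments for each kilobase of a transcript and scales them to all mapped fragments, so levels of different genes are per length and every level is relative to its library's total. With a single control library, the error of each difference comes from the spread between the CD137 libraries and the control is assumed to vary like them. The labels name neither separate cultures for the replicates nor the promoter or number of clones behind either line, so the p-values speak only of how far these libraries differ, and that spread may be technical.

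Chaperones bind unfolded chains and help them to fold, refold or be handed on. HSP70 proteins work in cycles of ATP hydrolysis that J-domain proteins start and nucleotide exchange factors such as HSP110 end, and HSP90 takes over many signalling clients from HSP70; the ring-shaped chaperonins, TRiC in the cytosol and HSP60 with HSP10 in mitochondria, enclose their clients. In the ER, BiP (Hspa5) and GRP94 (Hsp90b1) work beside the lectin chaperones calreticulin and calnexin and the protein disulfide isomerases, and the unfolded protein response adjusts their genes through ATF6, XBP1 and PERK, while HSF1 acts on the cytosolic set. Macrophages secrete cytokines and enzymes, which fold in the ER.

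The labels were checked on Tnfrsf9, which stood at 364 and 370.0 FPKM in CD137 replicates 2 and 3, against 5.06 FPKM in control cells. The estimated depth of the CD137 libraries was 0.983 and 0.988 of that of the control. Of 8 macrophage markers 7 reached 1 FPKM, with Mertk at 0.03, 0 and 0 FPKM in CD137 replicate 2, CD137 replicate 3 and the control, and their summed level was 1772 and 1817 FPKM in CD137 libraries and 2957 FPKM in the control, of which Lyz2 made up 646, 669 and 1693 FPKM. Lyz2, Csf1r, Cd68 and Cd14 fell, whereas Fcgr1 (89.9 and 95.2 FPKM in CD137 libraries, 45.2 FPKM in the control), Itgam (79.1 and 79.2 FPKM against 57.5 FPKM) and Adgre1 (49.5 and 51.2 FPKM against 37.8 FPKM) rose in the test described below. The 5 epithelial markers summed to 7.97 and 1.48 FPKM in CD137 replicates 2 and 3 and to 1.03 FPKM in the control, with Krt8 at 2.60, 0.66 and 0.25 FPKM. T cell, B cell, fibroblast and endothelial markers summed to between 0.17 and 1.81 FPKM in each library. The fibroblast markers stood at 0.77 and 0.21 FPKM in CD137 replicates 2 and 3 and at 0.17 FPKM in the control. The part of these marker differences in the results was not tested.

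Because several of these genes are classical targets of the stress pathways, the promoters of the members the results turn on are shown first. They come from RefSeq on GRCm38.p6, the assembly also called mm10, and run from base 250 before the start of the gene to the last base before it, 5′ to 3′ on the gene's strand. Capitals mark the ER stress response element, searched as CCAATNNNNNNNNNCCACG on both strands, or, in Hspe1, the heat shock element, searched as GAANNTTCNNGAA on both strands; N is any base. On the reverse strand the ER element reads from CGTGG to ATTGG.
Hspa5 (chr2:34771840-34772089, plus strand): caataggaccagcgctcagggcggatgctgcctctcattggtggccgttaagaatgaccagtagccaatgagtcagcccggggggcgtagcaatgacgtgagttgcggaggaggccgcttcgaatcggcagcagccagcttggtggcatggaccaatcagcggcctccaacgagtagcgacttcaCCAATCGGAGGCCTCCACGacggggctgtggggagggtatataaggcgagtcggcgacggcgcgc
Calr (chr8:84846932-84847181, minus strand): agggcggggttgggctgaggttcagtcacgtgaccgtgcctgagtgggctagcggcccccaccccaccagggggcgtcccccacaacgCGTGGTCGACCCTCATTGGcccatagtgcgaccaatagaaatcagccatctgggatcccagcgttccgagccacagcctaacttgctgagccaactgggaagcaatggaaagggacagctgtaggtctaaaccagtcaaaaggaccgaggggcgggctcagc
Hsp90b1 (chr10:86705445-86705694, minus strand): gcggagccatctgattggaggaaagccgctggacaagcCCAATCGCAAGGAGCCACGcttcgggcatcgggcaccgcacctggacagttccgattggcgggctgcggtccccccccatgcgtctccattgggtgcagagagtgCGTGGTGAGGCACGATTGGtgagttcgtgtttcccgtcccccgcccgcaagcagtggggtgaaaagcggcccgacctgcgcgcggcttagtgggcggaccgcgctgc
Creld2 (chr15:88819396-88819645, plus strand): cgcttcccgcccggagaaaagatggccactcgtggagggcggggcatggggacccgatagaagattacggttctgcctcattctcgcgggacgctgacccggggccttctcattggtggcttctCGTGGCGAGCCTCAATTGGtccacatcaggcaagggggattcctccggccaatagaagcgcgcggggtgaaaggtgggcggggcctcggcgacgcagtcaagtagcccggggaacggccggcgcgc
Hspe1 (chr1:55087898-55088147, plus strand): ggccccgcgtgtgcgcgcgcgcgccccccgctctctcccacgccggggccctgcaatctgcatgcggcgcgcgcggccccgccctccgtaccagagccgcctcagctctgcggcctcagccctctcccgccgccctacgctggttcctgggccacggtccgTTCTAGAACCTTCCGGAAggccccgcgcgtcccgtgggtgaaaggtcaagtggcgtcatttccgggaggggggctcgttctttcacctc

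The ER stress response element lay in the promoter windows of 7 members, of 77 with a window, counting the 250 bases before and the 50 bases after the start. That is 7.29% of the members' 96 windows and 0.119% of all 32851 windows. The element was first described in promoters of such ER chaperone genes, so its presence in them is no independent result. The sites are shown in the orientation of the motif with its fixed letters in capitals, so that the variable middle can be compared; Hsp90b1 has 2 of them.
Hspa5: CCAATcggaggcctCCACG
Calr: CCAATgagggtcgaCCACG
Canx: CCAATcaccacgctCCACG
Creld2: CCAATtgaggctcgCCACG
Dnajc3: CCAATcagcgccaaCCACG
Hsp90b1, nearer site: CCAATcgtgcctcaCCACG
Hsp90b1, farther site: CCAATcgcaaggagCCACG
Pdia6: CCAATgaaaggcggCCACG
The heat shock element was found in 4 members, Hspd1, Hspe1, Hsph1 and Dnajb6. That is 6.25% of the members' windows, beside 0.603% of all windows. In Hsph1 the element lies after the start. Hspd1 and Hspe1 lie head to head, so that they share the same pair of overlapping heat shock elements. No ER element overlapped a heat shock element. A match of letters is a description of the window and not a measured binding site.

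Across the whole group, more chaperone genes were lower than higher in CD137 cells, and most of the difference in their summed level lay in the most abundant ones. Of the 94 members 76 reached 1 FPKM in at least 1 library and were tested with limma on log2(FPKM + 1) among all 10720 genes at that level, with Benjamini-Hochberg adjustment. At an adjusted p under 0.05, 14 members were higher and 24 lower in CD137 cells, and 38 did not pass. Among all expressed genes 42.6% passed, 24.4% higher and 18.2% lower, and the members' shares stood below that background for higher genes (18.4%) and above it for lower genes (31.6%). In RNA from bulk cultures, a lower level in every cell and fewer cells with the transcript cannot be told apart. The median log2 fold change of the members was -0.05, beside 0.03 over all expressed genes. Both CD137 libraries lay below the control for 40 members and above it for 28, as against 4314 below and 5253 above among all expressed genes. In the fit of all 16003 genes without a limit on level, limma passed 0 genes after adjustment, with 43 members and 5281 genes at an unadjusted p under 0.05, and the smallest adjusted p was 0.0802. "Rose" and "fell" below refer to the fit of expressed genes.

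**Figure D1:**
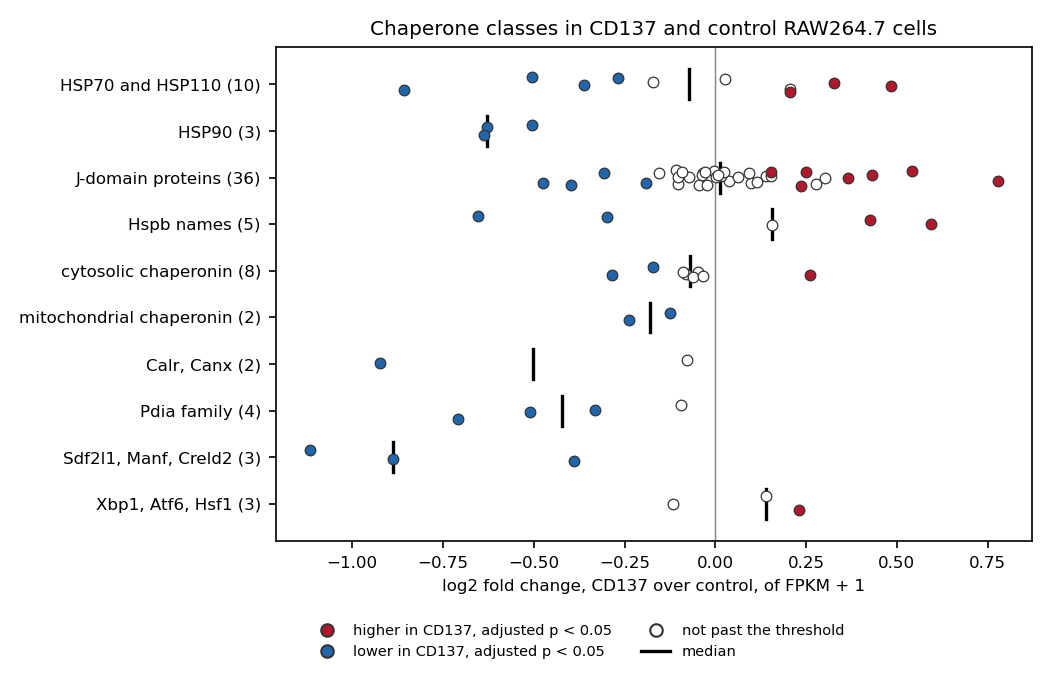
Log2 fold change, CD137 over control, of FPKM + 1 for the 76 expressed members, in rows by class with the number of genes in brackets; each point is 1 gene, the bar is the class median, red and blue points passed an adjusted p of 0.05 as higher or lower in CD137 cells and open points did not pass. All 3 HSP90 genes and all 3 of Sdf2l1, Manf and Creld2 are blue, whereas the 36 J-domain genes lie around 0 with 7 red and 4 blue points.

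Decreases lay mostly among the abundant members. At a mean level of 20 FPKM or more, 10 of 51 members rose and 23 fell, against 29.5% higher and 24.7% lower among the 4318 genes at that level; below it, 4 of 25 expressed members rose and 1, Dnajb14, fell, against 21% higher and 13.8% lower among 6402 such genes. The summed level of all 94 members was 8244 and 8188 FPKM in CD137 libraries, 1.63% and 1.61% of the total, and 9935 FPKM in the control, 1.97% of the total. The 10 most abundant members, led by Hsp90ab1, Hspa8 and Hspa5, summed to 4406 and 4349 FPKM in CD137 cells and 5726 FPKM in control cells, a ratio of 0.764. The other 84 members together gave 3838 and 3839 FPKM in CD137 cells and 4209 FPKM in control cells, a ratio of 0.912. A change of at least 1.5-fold on the scale of FPKM + 1 that also passed the threshold was found in 10 members, against 8.16% of all expressed genes: Creld2, Calr, Sdf2l1, Hspa8, Pdia6, Hspb7, Hsp90b1 and Hsp90aa1 were lower and Dnajb9 and Hspb6 higher.

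**Figure D2:**
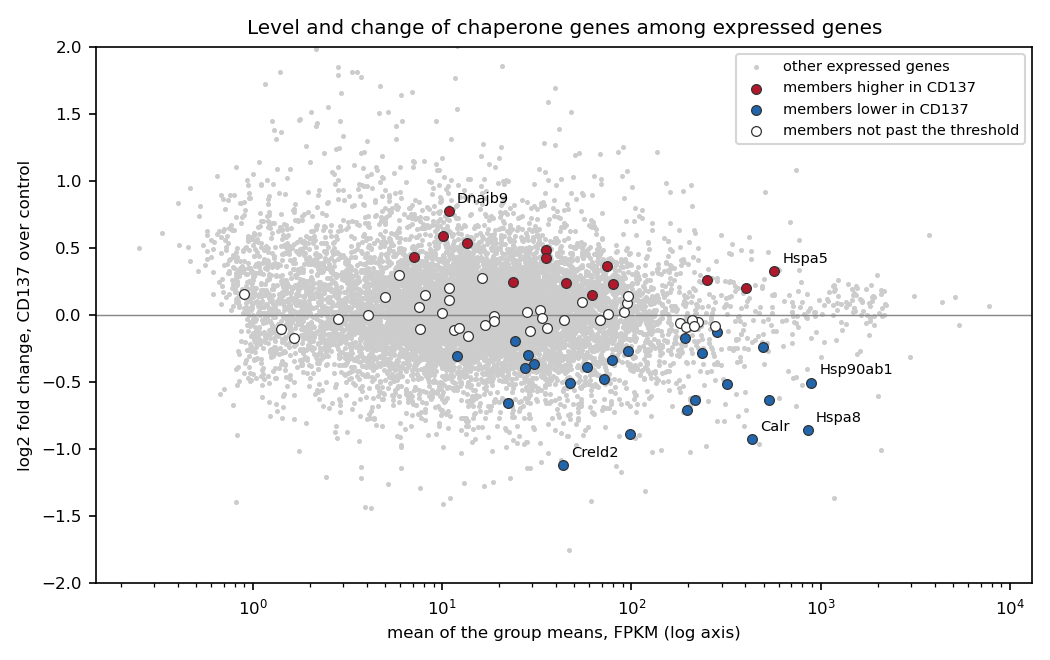
Log2 fold change, CD137 over control, against the mean of the group means in FPKM on a log axis, for the 76 expressed members (coloured or open circles) and 10644 other expressed genes (grey); 7 other genes lie beyond the axis limit of 2. Of the labelled genes, Hsp90ab1, Hspa8, Calr and Creld2 lie below 0 and Hspa5 and Dnajb9 above it.

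The ER held the 3 members with the largest decreases, Creld2, Calr and Sdf2l1, whereas the genes of BiP itself and of its partner Dnajb9 were higher. Of 20 expressed ER members 11 fell, 3 rose and 6 did not pass (median log2 fold change -0.29). Over all expressed genes 18.2% fell and 24.4% rose. Without the variance trend, and likewise after quantile normalization, 10 ER members fell and 2 rose. When only genes at 5 FPKM or more were tested, 11 fell and 4 rose. The summed level of the ER members was 2488 and 2463 FPKM in CD137 cells against 3228 FPKM in control cells. Hspa5, which encodes BiP, the HSP70 of the ER lumen (chr2:34772090-34776529, plus strand, mm10), stood at 639 and 625 FPKM in CD137 cells, against 504 FPKM in control cells. It rose by 0.33 ± 0.03 on the log2 scale (SE; limma, Benjamini-Hochberg adjusted p = 0.00256), and both CD137 libraries lay above the control. Hsp90b1, which encodes GRP94, the HSP90 of the ER (chr10:86690841-86705444, minus strand), stood at 425 and 410.0 FPKM in CD137 cells, against 649 FPKM in control cells (log2 fold change -0.64 ± 0.04, limma adjusted p = 0.00101). The order of this pair therefore turned round: within a library, the Hspa5 level was 1.502 and 1.524 times the Hsp90b1 level in CD137 cells and 0.776 times in control cells. Both promoters shown above carry the ER stress response element. Hspa5 overlaps Rabepk on the opposite strand, which was at 16.3 and 14.2 FPKM in CD137 cells and 16.8 FPKM in control cells.

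The nucleotide exchange factor of BiP, Hyou1, fell to 85.7 and 88.1 FPKM in CD137 cells, against 105 FPKM in control cells, or 6740 and 6977 reads against 8441 (log2 fold change -0.27 ± 0.04, limma adjusted p = 0.00721). Read numbers here and below were recovered from the authors' Poisson p-values and FPKM under an inferred form of that test. Hspa13, a microsomal HSP70, did not pass, at 12.1 and 11.4 FPKM in CD137 cells and 10.1 FPKM in control cells. It passed as higher when only genes at 5 FPKM or more were tested (limma adjusted p = 0.049). The J-domain partners of BiP split. Dnajb9 (ERdj4), a repressor of the stress sensor IRE1 and a factor of ER-associated degradation, was at 14.1 and 13.8 FPKM in CD137 cells, against 7.71 FPKM in control cells, or 460 and 452 reads against 256. Its log2 fold change of 0.78 ± 0.06 (limma adjusted p = 0.00164) was the largest increase among the members. Dnajb11 (ERdj3), which hands new chains to BiP, stood at 58.6 and 61.5 FPKM in CD137 cells, against 83.9 FPKM in control cells (log2 fold change -0.48 ± 0.05, limma adjusted p = 0.00255). The calls on the ER membrane pair Dnajb12 and Dnajb14, in opposite directions, were both lost without the variance trend and after quantile normalization. Dnajb12 was at 26.4 and 24.9 FPKM in CD137 cells and 21.4 FPKM in control cells, and rose by 0.25 ± 0.06 on the log2 scale (limma adjusted p = 0.0257). Dnajb14 was at 11.3 and 9.96 FPKM in CD137 cells and 13.4 FPKM in control cells (log2 fold change -0.31 ± 0.09, limma adjusted p = 0.0446). Dnajc3 (p58IPK, 16.4 and 16.3 FPKM in CD137 cells, 17.3 FPKM in control cells), the reductase Dnajc10 (43.0 and 43.8 FPKM against 44.5 FPKM) and Dnajc1 (10.7 and 9.52 FPKM against 9.95 FPKM) did not pass, and the libraries of Dnajc1 overlapped.

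Of the lectin chaperones, which hold glycoproteins during folding, only calreticulin passed. Calr (chr8:84842088-84846931, minus strand) stood at 299 FPKM in each CD137 library, against 568 FPKM in control cells, a log2 fold change of -0.92 ± 0.03 (limma adjusted p = 0.000552). Its membrane-bound relative Canx was at 212 and 204 FPKM in CD137 cells and 220.1 FPKM in control cells (log2 fold change -0.08 ± 0.04, limma adjusted p = 0.174). The Calr level was 1.41 and 1.46 times the Canx level in CD137 cells, against 2.58 times in control cells. The protein disulfide isomerases form and shuffle disulfide bonds. Of the 4 expressed Pdia genes 3 fell (75.0%) and 0 rose, beside 18.2% lower and 24.4% higher over all expressed genes. Pdia6 (P5) was at 146 and 153 FPKM in CD137 cells, against 245 FPKM in control cells, or 5439 and 5725 reads against 9276 (log2 fold change -0.71 ± 0.04, limma adjusted p = 0.00107). Pdia3 (ERp57), the partner of calreticulin and calnexin, was at 260.3 and 264 FPKM in CD137 cells, against 374 FPKM in control cells (log2 fold change -0.51 ± 0.03, limma adjusted p = 0.00114). Pdia4 (ERp72) was at 71.0 and 69.3 FPKM in CD137 cells, against 88.5 FPKM in control cells (log2 fold change -0.33 ± 0.04). Pdia5 did not pass, at 12.2 and 11.4 FPKM in CD137 cells and 12.6 FPKM in control cells. Summed over the class, Pdia genes gave 489.5 and 497 FPKM in CD137 cells and 719.6 FPKM in control cells, a ratio of 0.686.

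The 3 small luminal or secreted stress-responsive proteins fell together. Creld2 (chr15:88819646-88826681, plus strand), whose promoter is shown above, had the largest decrease of the members: 28.2 and 25.8 FPKM in CD137 cells, against 59.6 FPKM in control cells, or 669 and 614 reads against 1438. Its log2 fold change was -1.12 ± 0.07 (limma adjusted p = 0.00106). Sdf2l1, which keeps Dnajb11 clients from aggregating, was at 65.7 and 71.1 FPKM in CD137 cells, against 127 FPKM in control cells (log2 fold change -0.89 ± 0.06, limma adjusted p = 0.00116). Manf, an ER-resident and secreted trophic factor that binds BiP, was at 50.04 and 50.96 FPKM in CD137 cells, against 66.5 FPKM in control cells (log2 fold change -0.39 ± 0.04). In each of the 3 genes both CD137 libraries lay below the control and apart from it.

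**Figure D3:**
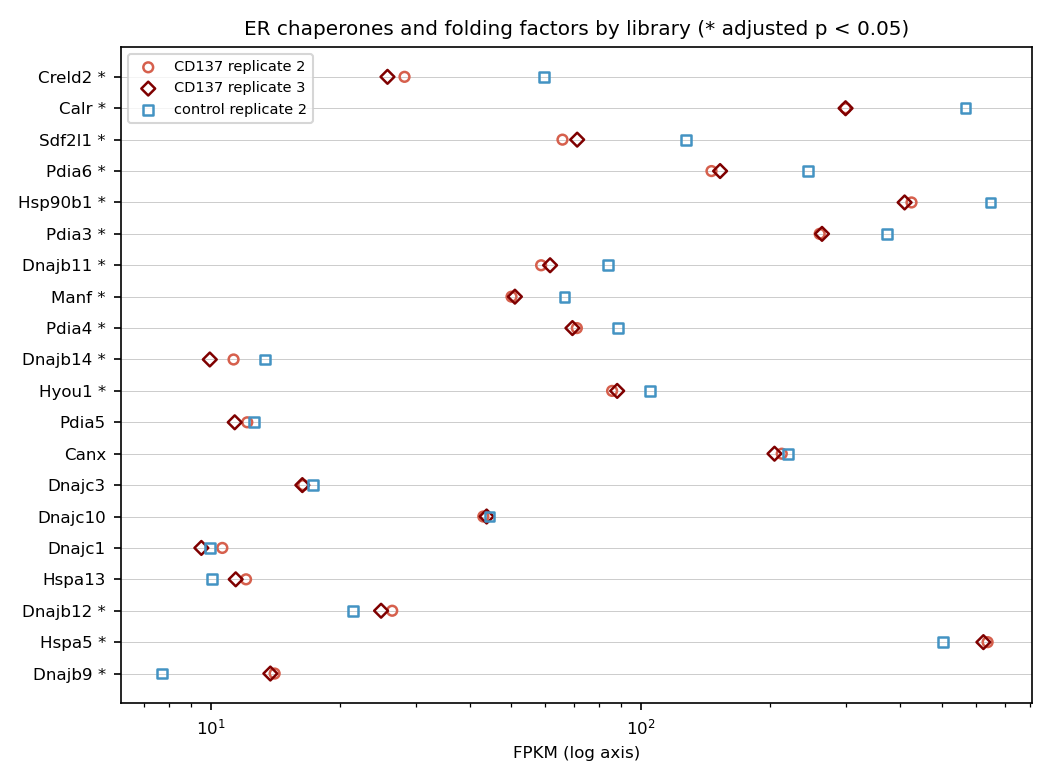
FPKM of the 20 expressed ER members in each library on a log axis, ordered from the largest decrease (top) to the largest increase (bottom); circles and diamonds are CD137 replicates 2 and 3, squares are control replicate 2, and an asterisk marks an adjusted p under 0.05. The squares of Creld2, Calr and Sdf2l1 stand well to the right of the CD137 symbols, and those of Hspa5 and Dnajb9 to the left.

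Members with the same ER element in the promoter did not move as one. Of the 7, Hspa5 rose, Creld2, Calr, Pdia6 and Hsp90b1 fell, and Canx and Dnajc3 did not pass. Among the transcription factors, Atf6, the membrane-bound sensor that acts on such elements, was at 87.0 and 85.3 FPKM in CD137 cells, against 73.3 FPKM in control cells, and rose by 0.23 ± 0.04 on the log2 scale (limma adjusted p = 0.0108). Xbp1 was at 97.9 and 103 FPKM in CD137 cells, against 90.8 FPKM in control cells, and did not pass (log2 fold change 0.14 ± 0.05, limma adjusted p = 0.0624); it passed when only genes at 5 FPKM or more were tested. The spliced and unspliced forms of Xbp1 are not separated in these values.

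The other genes of ER folding and of the unfolded protein response, which are not members, leaned to higher levels in CD137 cells. In the list of the unfolded protein response and ER-associated degradation, 18 of 32 expressed genes rose (56.25%), 4 fell (12.5%) and 10 did not pass. The median log2 fold change of this list was 0.22, and among all expressed genes 24.4% rose and 18.2% fell. Ppp1r15a (GADD34), which restores translation after PERK signalling, was at 66.0 FPKM in each CD137 library, against 35.8 FPKM in control cells (log2 fold change 0.86 ± 0.04, limma adjusted p = 0.000808). Ube2g2, the ubiquitin-conjugating enzyme of ER-associated degradation, was at 46.0 and 45.4 FPKM in CD137 cells, against 27.4 FPKM in control cells (log2 fold change 0.72 ± 0.04). Ddit3 (CHOP), Derl1 and Sel1l also rose, with log2 fold changes between 0.47 and 0.50. Chac1, which degrades glutathione, went the other way, at 18.4 and 19.6 FPKM in CD137 cells, against 31.8 FPKM in control cells (log2 fold change -0.71 ± 0.06). Atf6b, Vcp and Mbtps1 were the other genes of the list that fell. Without the variance trend Mbtps1 and, among the genes that rose, Creb3, Edem1 and Ern1 did not pass. Creb3 and Ern1 did not pass after quantile normalization either. Among 29 expressed other ER folding enzymes 11 rose (37.9%), 4 fell (13.8%) and 14 did not pass (median 0.10). Without the variance trend 4 of the calls higher, on Creld1, Ero1l, Erp44 and Qsox1, and 2 of those lower, on Erp29 and Uggt1, were lost. The BiP exchange factor Sil1 was at 38.9 and 42.5 FPKM in CD137 cells, against 26.6 FPKM in control cells (log2 fold change 0.60 ± 0.07, limma adjusted p = 0.00324). The prolyl isomerase Fkbp7 rose as well, at 4.81 and 4.01 FPKM in CD137 cells against 2.75 FPKM in control cells, whereas the glucosidase Mogs was at 40.3 and 43.0 FPKM in CD137 cells, against 66.8 FPKM in control cells (log2 fold change -0.67 ± 0.05).

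The cytosol held the most abundant members, and both cytosolic HSP90 genes fell. Of 29 expressed cytosolic and nuclear members 5 rose (17.2%), 9 fell (31.0%) and 15 did not pass. The shares over all expressed genes were 24.4% higher and 18.2% lower. The members of this compartment had a median log2 fold change of -0.06. Their summed level was 3949 and 3943 FPKM in CD137 cells against 4905 FPKM in control cells. Hspa8 (HSC70), the constitutive HSP70, was at 608 and 606 FPKM in CD137 cells, against 1099.5 FPKM in control cells (log2 fold change -0.86 ± 0.03, limma adjusted p = 0.000552). It was the most abundant member in control cells, and in CD137 cells it stood below Hsp90ab1 and Hspa5: the Hspa8 level was 0.951 and 0.970 times the Hspa5 level in CD137 cells and 2.18 times in control cells. Hsp90ab1, the constitutive HSP90, was at 739 and 731 FPKM in CD137 cells, against 1043 FPKM in control cells (log2 fold change -0.50 ± 0.03, limma adjusted p = 0.00106). Hsp90aa1, the inducible form, was at 174 and 168 FPKM in CD137 cells, against 264 FPKM in control cells (log2 fold change -0.63 ± 0.04, limma adjusted p = 0.00109). With Hsp90b1 of the ER, the 3 HSP90 genes summed to 1338 and 1309 FPKM in CD137 cells and 1957 FPKM in control cells, a ratio of 0.676.

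The remaining cytosolic HSP70 and HSP110 genes were mixed. Hspa14, a ribosome-associated HSP70, was at 38.7 and 39.7 FPKM in CD137 cells, against 56.0 FPKM in control cells (log2 fold change -0.50 ± 0.05, limma adjusted p = 0.00200). Hsph1 (HSP105), an exchange factor whose window holds a heat shock element, was at 26.7 and 26.2 FPKM in CD137 cells, against 34.3 FPKM in control cells (log2 fold change -0.36 ± 0.05). Its relative Hspa4l rose, at 42.2 and 40.4 FPKM in CD137 cells against 29.3 FPKM in control cells (log2 fold change 0.48 ± 0.05, limma adjusted p = 0.00284). The third HSP110 gene, Hspa4, was at 92.5 and 91.3 FPKM in CD137 cells and 90.2 FPKM in control cells and did not pass. The HSP110 genes thus gave 1 decrease, 1 increase and 1 that did not pass. The stress-inducible pair Hspa1a and Hspa1b stayed under 1 FPKM in every library: Hspa1b had 25 reads in each CD137 library and 49 in the control, and Hspa1a 4 and 7 reads in CD137 libraries and 3 in the control. The 2 genes are nearly identical, and how the counting divided reads between them is uncertain. Hsf1, the transcription factor of the heat shock response, was at 27.2 and 28.3 FPKM in CD137 cells and 30.2 FPKM in control cells and did not pass (log2 fold change -0.12 ± 0.05, limma adjusted p = 0.131).

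Among the co-chaperones, Ahsa1, Stip1 and Fkbp4 fell most. Of 27 expressed co-chaperones, which are not members, 1 rose (3.7%), 5 fell (18.5%) and 21 did not pass (median log2 fold change -0.06). With 24.4% higher and 18.2% lower among all expressed genes, the share that fell was near that background. Ahsa1, the activator of the HSP90 ATPase, was at 56.1 and 59.3 FPKM in CD137 cells, against 94.1 FPKM in control cells (log2 fold change -0.70 ± 0.05, limma adjusted p = 0.00143). Stip1 (HOP), which bridges HSP70 and HSP90, was at 67.7 and 67.9 FPKM in CD137 cells, against 105 FPKM in control cells (log2 fold change -0.62 ± 0.04). Fkbp4, the immunophilin FKBP52, was at 81.0 and 84.1 FPKM in CD137 cells, against 125 FPKM in control cells (log2 fold change -0.59 ± 0.04). The other co-chaperones that fell were Ptges3 (p23) and the kinase-specific Cdc37, by 0.23 and 0.20 on the log2 scale, so all 5 that fell are known to bind HSP90 or its clients. Sugt1, which also binds HSP90, rose, at 45.7 and 41.9 FPKM in CD137 cells against 35.2 FPKM in control cells. Without the variance trend Cdc37 and Sugt1 did not pass.

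**Figure D4:**
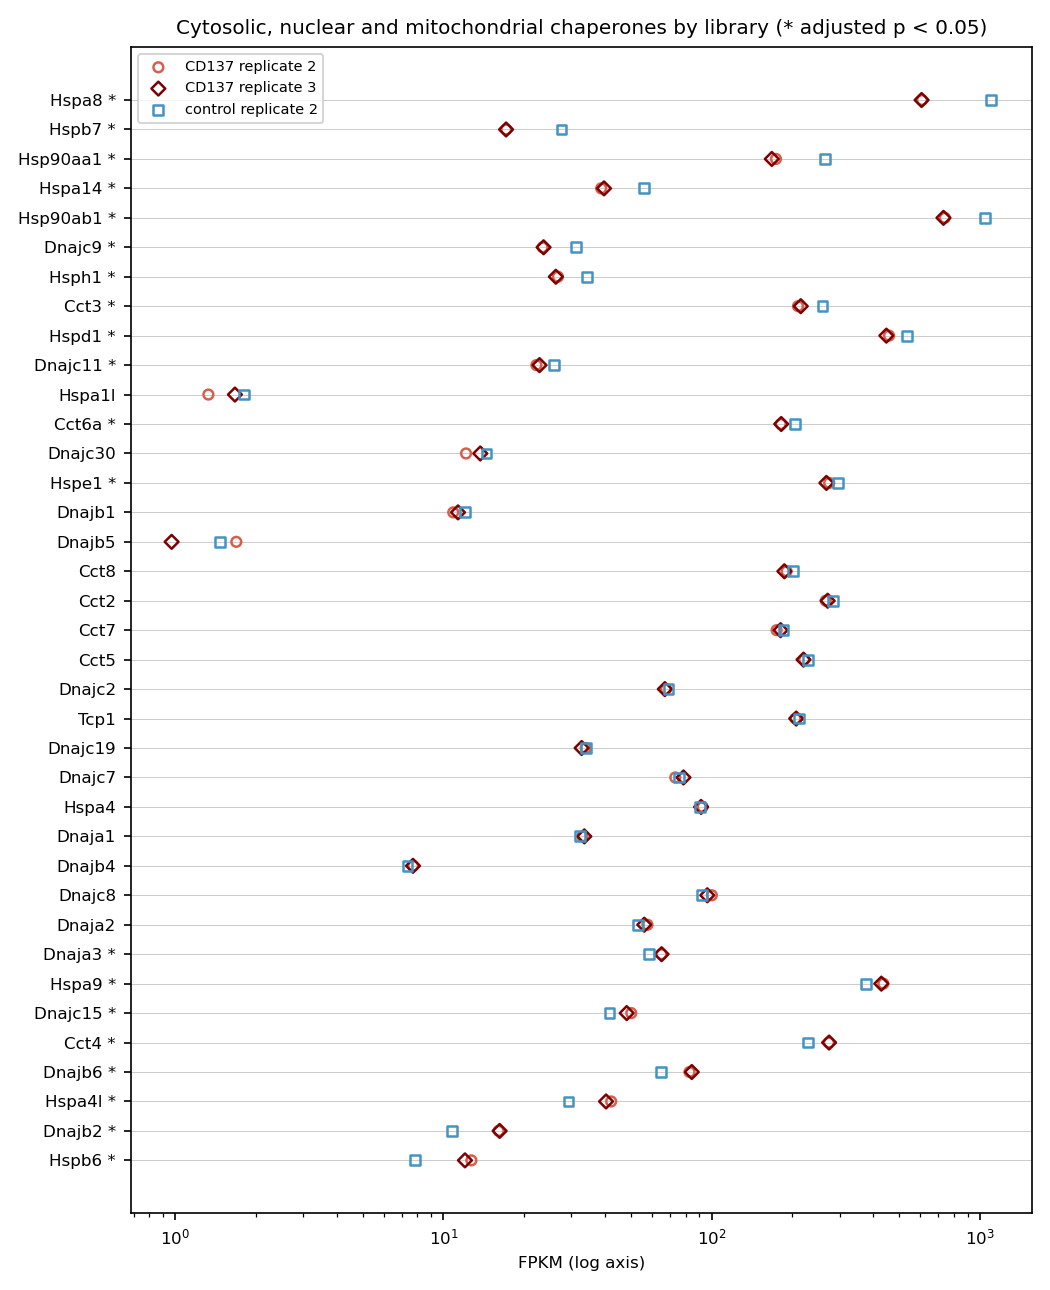
FPKM of the expressed members assigned to the cytosol and nucleus or to mitochondria in each library on a log axis, ordered from the largest decrease (top) to the largest increase (bottom); circles and diamonds are CD137 replicates 2 and 3, squares are control replicate 2, and an asterisk marks an adjusted p under 0.05. The control square of Hspa8 lies at 1099.5 FPKM, right of both CD137 symbols, and most chaperonin subunits have all 3 symbols close together.

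The J-domain proteins, the largest class, went both ways. Of 36 expressed genes 7 rose (19.4%), 4 fell (11.1%) and 25 did not pass, beside 24.4% higher and 18.2% lower among all expressed genes. Their median log2 fold change was 0.01, and their summed level was 1010.5 and 1011 FPKM in CD137 cells and 987 FPKM in control cells. In the fit without a variance trend 4 rose, Dnajb2, Dnajb6, Dnajb9 and Dnajc18, and 2 fell, Dnajb11 and Dnajc9. By subfamily, 1 of 3 Dnaja genes rose and 0 fell, 4 of 9 Dnajb genes rose and 2 fell, and 2 of 24 Dnajc genes rose and 2 fell. Beside the ER genes above, Dnajb2, which binds ubiquitinated clients, was at 16.1 and 16.2 FPKM in CD137 cells, against 10.8 FPKM in control cells (log2 fold change 0.54 ± 0.06, limma adjusted p = 0.00281). Dnajb6, a suppressor of aggregation whose windows hold a heat shock element, was at 82.7 and 84.3 FPKM in CD137 cells, against 64.6 FPKM in control cells (log2 fold change 0.36 ± 0.04, limma adjusted p = 0.00324). Dnajc18 was at 8.56 and 8.04 FPKM in CD137 cells, against 5.89 FPKM in control cells, or 789 and 744 reads against 553 (log2 fold change 0.43 ± 0.08). The histone chaperone Dnajc9 went the other way, at 23.4 and 23.6 FPKM in CD137 cells against 31.3 FPKM in control cells (log2 fold change -0.40 ± 0.05, limma adjusted p = 0.00416). Among the J-domain genes that did not pass, the splicing-associated Dnajc8 was at 100.1 and 96.3 FPKM in CD137 cells and 91.9 FPKM in control cells, and Dnajc7, which binds both HSP70 and HSP90, at 73.2 and 78.5 FPKM in CD137 cells and 75.3 FPKM in control cells. Dnajb1, the classical HSP40 of the heat shock response, was at 10.9 and 11.3 FPKM in CD137 cells and 12.1 FPKM in control cells (log2 fold change -0.11 ± 0.06, limma adjusted p = 0.225). The log2 fold changes of the 25 that did not pass lay between -0.15 (Dnajc30) and 0.30 (Dnajc17).

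TRiC, the chaperonin that folds actin and tubulin, had 8 expressed subunits, of which 1 rose, 2 fell and 5 did not pass. Summed over the 10 genes of the class, levels were 1722 and 1735 FPKM in CD137 cells and 1799.9 FPKM in control cells. Cct4 was at 274 FPKM in each CD137 library, against 228 FPKM in control cells, and rose by 0.26 ± 0.03 on the log2 scale (limma adjusted p = 0.00450). Cct3 was at 209.8 and 215 FPKM in CD137 cells, against 259 FPKM in control cells (log2 fold change -0.28 ± 0.04, limma adjusted p = 0.00445), so that the Cct4 level was 1.30 and 1.28 times the Cct3 level in CD137 cells and 0.884 times in control cells. Cct6a was at 181 and 182 FPKM in CD137 cells, against 204 FPKM in control cells (log2 fold change -0.17 ± 0.03, limma adjusted p = 0.0155), and did not pass without the variance trend. Of the 5 subunits that did not pass, Cct2 was at 266 and 271 FPKM in CD137 cells and 284 FPKM in control cells, and Tcp1 at 205 and 207 FPKM in CD137 cells and 211 FPKM in control cells. The highest subunit stood 1.57 and 1.52 times above the lowest, Cct7, in CD137 libraries and 1.53 times in the control. Tcp1, Cct7 and Cct8 overlap a neighbour on the opposite strand; the sources used here do not give strand use in counting. The paralogs Cct6b and Cct8l1 stayed under 1 FPKM. Prefoldin itself brings actin and tubulin to TRiC. The prefoldin list has 7 genes, including the prefoldin-like Uri1. Beside 24.4% higher and 18.2% lower over all expressed genes, 4 of the 7 rose (57.1%), 1 fell (14.3%) and 2 did not pass. Uri1 was among those that rose, as were Vbp1 and Pfdn4, which did not pass without the variance trend. Pfdn6 was at 20.1 and 22.7 FPKM in CD137 cells, against 38.8 FPKM in control cells (log2 fold change -0.83 ± 0.08, limma adjusted p = 0.00245), and Pfdn1 at 44.4 and 44.9 FPKM in CD137 cells, against 34.1 FPKM in control cells (log2 fold change 0.38 ± 0.04).

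In mitochondria the summed level of the 8 members was 1352 and 1327 FPKM in CD137 cells and 1379 FPKM in control cells. Of the 8, 3 rose (37.5%), 3 fell (37.5%) and 2 did not pass, beside 24.4% higher and 18.2% lower among all expressed genes. Without the variance trend Hspd1 alone of these 6 genes passed, with 1 lower and 0 higher, and Hspa9, Dnaja3, Dnajc15, Dnajc11 and Hspe1 did not. Hspa9 (mortalin), the HSP70 of import and folding in the matrix, was at 436 and 429 FPKM in CD137 cells, against 375 FPKM in control cells (log2 fold change 0.20 ± 0.03, limma adjusted p = 0.00845). Its J-domain partner Dnaja3 was at 65.0 FPKM in each CD137 library, against 58.3 FPKM in control cells (log2 fold change 0.15 ± 0.04, limma adjusted p = 0.0346), and it did not pass after quantile normalization either. Dnajc15, of the import motor, was at 50.1 and 48.2 FPKM in CD137 cells, against 41.6 FPKM in control cells (log2 fold change 0.24 ± 0.05, limma adjusted p = 0.0163). Dnajc11, linked to the organisation of the inner membrane, was at 22.2 and 22.8 FPKM in CD137 cells, against 25.8 FPKM in control cells (log2 fold change -0.19 ± 0.05, limma adjusted p = 0.0373). Both chaperonin genes fell. Hspd1 (HSP60; chr1:55077834-55088217, minus strand) was at 458 and 448 FPKM in CD137 cells, against 534 FPKM in control cells, or 18914 and 18571 reads against 22413 (log2 fold change -0.24 ± 0.03, limma adjusted p = 0.00601). Hspe1 (HSP10; chr1:55088148-55091317, plus strand), its lid, was at 274 and 268 FPKM in CD137 cells, against 296 FPKM in control cells (log2 fold change -0.13 ± 0.04, limma adjusted p = 0.0410). The call on Hspe1 was also lost after quantile normalization, where its log2 fold change was -0.02. The annotated genes overlap by 70 bases on opposite strands, directly after the Hspe1 promoter shown above. The Hspd1 level was 1.67 times the Hspe1 level in each CD137 library and 1.81 times in the control.

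Among 17 further genes of mitochondrial folding and proteolysis, 3 rose (17.65%), 3 fell (17.65%) and 11 did not pass. The shares over all expressed genes were 24.4% higher and 18.2% lower. Lonp1, the matrix protease, was at 262 and 272 FPKM in CD137 cells, against 151 FPKM in control cells (log2 fold change 0.81 ± 0.04, limma adjusted p = 0.000808). The prohibitin scaffold genes fell: Phb was at 34.4 and 36.6 FPKM in CD137 cells, against 59.7 FPKM in control cells (log2 fold change -0.74 ± 0.05), and Phb2 at 171 and 175 FPKM in CD137 cells, against 222 FPKM in control cells (log2 fold change -0.36 ± 0.04). Trap1, the HSP90 of mitochondria, also fell, by 0.18 on the log2 scale (limma adjusted p = 0.0235), a call lost without the variance trend. Pam16, among the genes that rose, did not pass there either.

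**Figure D5:**
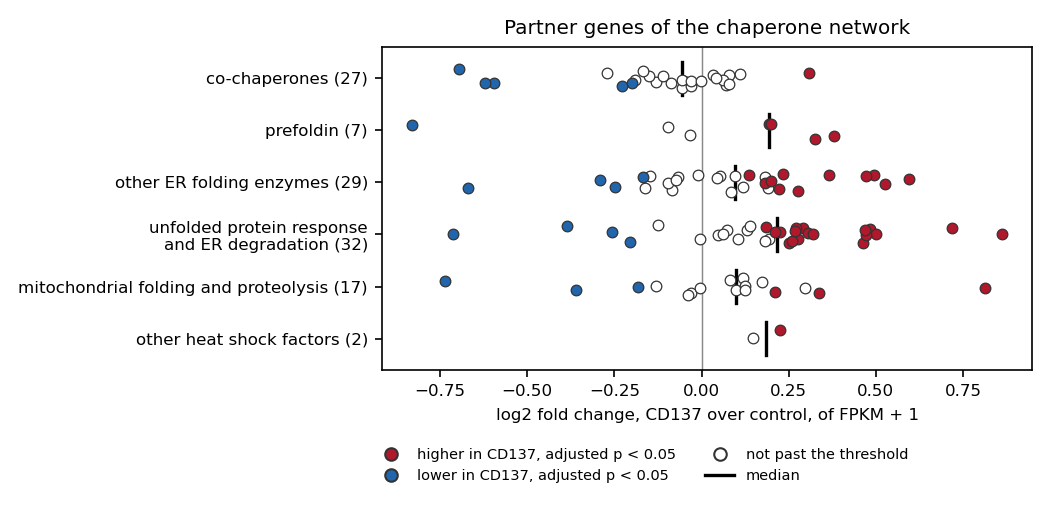
Log2 fold change, CD137 over control, of FPKM + 1 for the 114 expressed partner genes that are not members, in rows by list with the number of genes in brackets; each point is 1 gene, the bar is the list's median, and red, blue and open points are higher, lower and not past the threshold. The list of the unfolded protein response and ER degradation has 18 red and 4 blue points, and the co-chaperones 1 red and 5 blue.

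Of the genes with Hspb symbols, 5 were expressed. Hspb7, a small heat shock protein best known from muscle, was at 17.1 FPKM in each CD137 library, against 27.5 FPKM in control cells, or 835 and 839 reads against 1365 (log2 fold change -0.65 ± 0.05, limma adjusted p = 0.00164). Hspb6 (HSP20) was at 12.71 and 12.03 FPKM in CD137 cells, against 7.86 FPKM in control cells, or 296 and 282 reads against 186 (log2 fold change 0.59 ± 0.07, limma adjusted p = 0.00347). The small heat shock proteins that were expressed thus went opposite ways. Hspb11 was at 42.5 and 39.4 FPKM in CD137 cells, against 30.2 FPKM in control cells (log2 fold change 0.43 ± 0.06), and Hspbp1 at 25.9 and 25.1 FPKM in CD137 cells, against 31.5 FPKM in control cells (log2 fold change -0.30 ± 0.05). Hspbap1, at 0.97 and 1.02 FPKM in CD137 cells and 0.79 FPKM in control cells, did not pass and was the one expressed member whose group means both lay under 1 FPKM. Hspb1 (HSP25), the widespread stress-inducible form, had 1 read in each CD137 library and 7 reads in the control. In all, 18 members stayed under 1 FPKM in every library and were not tested; they reach 0.98 FPKM at most, 4 are listed at 0 in the control and 7 in at least 1 library. They include the testis-linked HSP70 gene Hspa2, the Hspa12 pair, Pdia2, Dnaja4 and the small heat shock protein Hspb8.

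The spread between the CD137 libraries was small beside most of these differences. The median absolute log2 difference of the 76 expressed members was 0.04 between CD137 replicates 3 and 2 and 0.18 between the CD137 mean and the control, against 0.06 and 0.19 over all expressed genes. The difference from the control exceeded that between the CD137 libraries in 65 of 76 members. That count was not made over all expressed genes, so it is not read as particular to the chaperones. The members with the largest spread were Dnajb5, at 1.69 and 0.97 FPKM in CD137 cells and 1.47 FPKM in the control, and Dnajc4, at 16.2 and 19.7 FPKM in CD137 cells and 14.6 FPKM in the control. Between the CD137 libraries, the Poisson test in the authors' deposited table gave an adjusted p under 0.05 to 2 of the 76 members, Canx and Hsp90b1, against 1.91% of all expressed genes; such a test compares the reads of those libraries, not conditions.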

How the data were processed

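RNA of RAW264.7 cells was measured in CD137 replicates 2 and 3 and control replicate 2, grouped by the sample titles. The authors' FPKM values, deposited with 2 decimals, are 1 for each gene in each library. The submitters' processing notes name HISAT2, Bowtie2, RSEM and mm10, with neither version nor role. The authors also deposited log2 ratios between libraries and, for each pair, a p-value that the file headers credit to a Poisson test. The authors' adjusted p of that test exceeds 1 for some genes, so it was treated as a score, as deposited. Of 21990 genes listed, 5987 without a value were left out. A broken line (1), not counted among the 21990, was left out as well.

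FPKM at 1 or more in some library defined the 10720 expressed genes, and log2(FPKM + 1) was tested with limma 3.58.1 (R 4.3.3; empirical Bayes with a variance trend, two-sided, Benjamini-Hochberg adjusted over those genes, threshold 0.05, 1 residual degree of freedom). A fold change on that scale understates the change of low genes. In simulated data for this comparison of 10720 genes, 0, 48, 82 and 100 percent of genes changed 1.2, 1.5, 2 and 4-fold were recovered, with 1 false call. The simulation changed far fewer genes than passed here and gave every library the same assumed spread. Its recovery and false calls therefore do not carry over to the fit of these data.

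Reads, or possibly fragments, were recovered for 57 of the 94 members from the authors' Poisson p-values and FPKM, using depth ratios of 0.983 and 0.988. The form of that test was inferred. In simulation 76 of 85 members were recovered, 76 of them right. The simulation used the same form, so it cannot show that the form is right. The recovered reads cover counting error only and were used to describe depth, in Python 3.11.15 with SciPy 1.17.1.

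The members, classes, compartments and partner lists were chosen with earlier results of these data known. Genes named are, per class, the 3 with the highest mean level and up to 3 with the largest increase and decrease past the threshold, the members chosen one by one, up to 3 genes per partner list, and Tnfrsf9; other genes named were chosen after their values were seen. Promoter windows are RefSeq's, matched by gene ID. The alternatives tried were other pseudocounts (0.1 and 0.5), other limits on level, no variance trend, quantile normalization, equal medians, and leaving out each CD137 library.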

Additional observations from a re-analysis of the deposited data

How the results depend on the processing

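The counts of members that were higher and lower, 14 and 24, stayed within 1.5 times under both other pseudocounts, both stricter limits on level, no variance trend, quantile normalization and equal medians (10 to 16 higher, 20 to 25 lower). Without a limit on level limma passed 0 genes, hence 0 members, 0 in every class and 0 partner genes in either direction. Without the variance trend 4 J-domain genes were higher and 2 lower, and 1 TRiC subunit and 1 mitochondrial chaperonin gene were lower; quantile normalization also left 1 mitochondrial chaperonin gene, and a limit of 5 FPKM gave 2 higher transcription factors. The members' median log2 fold change, -0.0458, was -0.0364 without a limit on level, -0.0572 after quantile normalization and -0.0684 at equal medians, and ranged from -0.0558 to -0.0454 when a CD137 library was left out. Signs turned for 3 genes that did not pass: Cct2 (0.0099) and Tcp1 (0.0105) after quantile normalization and Dnajc7 (-0.0142) at equal medians. The causes of these shifts were not tested. Leaving out a CD137 library leaves no residual degrees of freedom and so gave values without a test, and no named gene that passed changed sign. No paired analysis was possible because the groups share only replicate number 2 in the table. With 1 control library, a culture effect of that library and the effect of Cd137 cannot be told apart here. The simulated recovery at 1.2-fold was 0 percent, but far fewer genes were changed there than passed here, so it does not give the power of this fit. Several members past the threshold, such as Hspe1, Dnaja3 and Cct6a, differed by less than 1.2-fold. Without the variance trend 8 members lost their call, and 4 did after quantile normalization.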
